A study of Sus scrofa with 60 samples.

Results

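The liver of the newborn pig was set against the liver at every other stage of a developmental series, in order to find the transcripts that mark the newborn alone. The newborns were the 15 animals labelled 1 day post natum (dpn), out of 60 animals with 1 array each. The other 45 animals were 15 fetuses at 94 days post conceptionem (dpc), 14 pigs at 28 dpn and 16 pigs at 188 dpn. All 60 were German Landrace offspring of gilts fed an adequate protein (AP) diet during gestation, and the labels give no other treatment and no genotype. The offspring of gilts on the high protein diet were not analysed here.

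The stages differed in more than age. According to the methods of the study the fetuses were recovered surgically in an experiment of their own, the other animals were born after induced farrowing, and an overnight fast is described for the older pigs but not for the piglets. The newborns were killed by injection a little more than 1 day after birth and the older pigs by stunning and bleeding. Each stage held pairs of sibs, the lightest and the heaviest of a litter at 94 dpc and 1 dpn, and piglets of a litter were divided among the 3 stages after birth, so newborns and older pigs may share litters. The piglets kept for the later stages were fostered to other sows, males among them were castrated, and from weaning they were housed singly on standard diets. Litter, sex and weight could not be matched to the arrays, so animals were treated as independent. The effects of stage, experiment, rearing, feeding and killing cannot be told apart.

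Birth moves the liver from a steady supply of glucose and amino acids through the umbilical vein to milk, which is rich in fat and lactose. Galactose from lactose is handled mainly by the liver, fatty acids are burned and turned into ketone bodies, and glucose has to be made there. The hepatocyte is also a secretory cell, in which albumin and most other plasma proteins are folded in the endoplasmic reticulum and carried to the Golgi apparatus in coated vesicles, while blood formation, a task of the fetal liver, is ending.

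Each level is the log2 of the deposited array intensity plus 16, and each difference is newborn minus the other stage on that scale, with its standard error (SE) after the ± sign. A probe set, the group of oligonucleotides that reads 1 transcript, was called newborn-high when its 1 dpn mean lay above each of the 3 other stage means and the largest of the 3 limma p-values, adjusted by Benjamini-Hochberg, was below 0.05. It was called newborn-low in the mirror case. The step to the stage closest to the newborn, called the nearest stage, measures how far the newborn stood out. Of 13844 probe sets tested, 945 were newborn-high, which is 6.83%, and 954 were newborn-low, which is 6.89%. At gene level, with 1 probe set per gene, 426 of 5491 genes (7.76%) were newborn-high and 387 (7.05%) newborn-low, and these are the shares against which gene groups are read below.

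Most of these steps were small. The median step of the called genes was 0.53 upward and -0.50 downward, and 49 newborn-high and 30 newborn-low genes differed at least 2-fold from the nearest stage. At that edge PREB stood at 1.02 inside and HDLBP at 0.99 outside, and on the low side FAM213A at -1.01 inside and SFRP1 at -0.99 outside. In 34 genes (0.619%) every newborn lay above every one of the 45 other animals, and in 9 genes (0.164%) every newborn lay below them. The fetus was the nearest stage for 218 of the 426 newborn-high genes, the 28 dpn pigs for 156 and the 188 dpn pigs for 52. Because the tissue was bulk liver, fewer cells of a type and less RNA per cell cannot be told apart in any of these values.

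**Figure D1:**
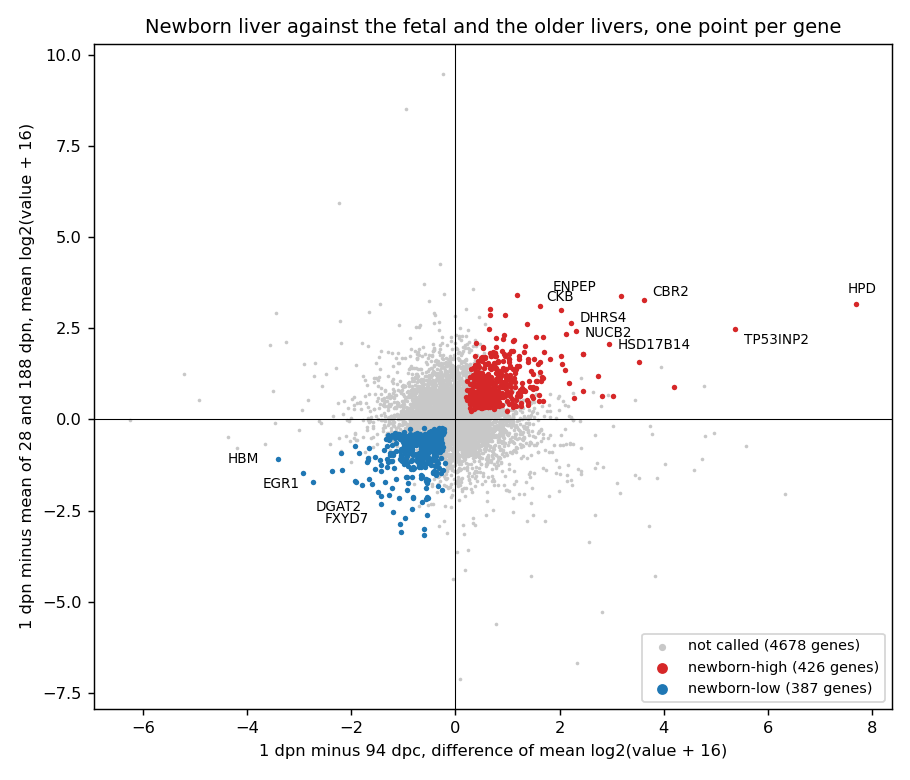
Each point is 1 of the 5491 genes tested, with the newborn minus the fetal mean on the horizontal axis and the newborn mean minus the average of the 28 and 188 dpn means on the vertical axis, both in log2(value + 16). The 426 newborn-high genes (red) fill the upper right corner and the 387 newborn-low genes (blue) the lower left, with HPD far to the right.

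A plain contrast of 1 dpn with the mean of the 3 other stages was broader. It passed upward for 5061 probe sets (36.6%) and downward for 4098 (29.6%), but in 2418 of the former and 1383 of the latter the newborn mean lay between those of other stages. The fetal gene AFP, which encodes alpha-fetoprotein, is an example: its fetal mean of 15.84 exceeded the newborn mean of 15.59, and the contrast of 6.23 came from the older pigs, whose means were 7.19 and 5.06. The latter lay below the background of 5.84, so the contrast is a lower limit. Newborn-high and newborn-low therefore refer below only to the stricter call.

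Array controls also set the newborns apart. For actin, the array carries probe sets near both ends of the transcript, and the log2 ratio of their signals, 3′ over 5′, grows when RNA is shortened. It averaged 1.76 in the newborns (1.14 to 2.23), 2.29 in the fetuses (1.54 to 2.84), 3.54 in the 28 dpn pigs (2.85 to 4.41) and 4.01 in the 188 dpn pigs (3.27 to 4.62). The corresponding GAPDH ratio was also lowest in the newborns, at 0.38 (0.16 to 0.66), with 0.99 in the fetuses and 0.77 and 0.68 in the older groups. In two-sided permutation tests all 6 differences passed, with an adjusted p of 6e-05 for actin against the fetus and 2.4e-05 for the other 5, the smallest that these resamples could give. What the ratios contribute to the calls was not tested beyond the following fits. With the actin ratio as a covariate the newborn-high genes numbered 220 and the newborn-low genes 179, and with the GAPDH ratio 178 and 176, an alternative added after the data had been seen. The 2-fold newborn-high probe sets went from 134 to 110 and 182, and the newborn-low ones from 79 to 78 and 113. Newborn actin ratios did not overlap with those of the older pigs, nor newborn GAPDH ratios with the fetal ones. These fits therefore cannot tell the ratio from the stage, and why a call was lost with a covariate was not tested. Of the 945 newborn-high probe sets 415 were still called with the actin ratio, of the 954 newborn-low ones 402, and none was called the opposite way, although 3 of the called genes that the naming rule picked changed the sign of their step without a call. Newborn arrays also resembled each other less than the arrays of other stages, with a mean within-stage correlation across probe sets of 0.929 against 0.951 to 0.955.

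Centring every array on its median was the scaling that moved the balance most. It took the median contrast over all probe sets from 0.05 to -0.13, the newborn-high probe sets from 945 to 786 and the newborn-low ones from 954 to 1224, and the share of the contrast's calls that were upward from 55.3% to 37.9%. Of the 131 called genes that the naming rule picked, 49 held their call and direction under all 11 alternatives run.

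The hepatocyte markers were strongly expressed in the newborns. The summed intensity of the 20 hepatocyte identity genes had a median of 19.67 on the log2 scale in the newborns, against 19.49 in the fetuses and 19.27 and 19.61 in the older pigs. Among the 18 muscle genes 11 lay at or below the level of the Tag controls, which have no pig target and serve as background, and 9 of 13 pancreas and gut genes did so. The summed level of the pancreas and gut genes was nevertheless 13.16 to 14.58 in the newborns and 13.43 to 14.44 in the fetuses. It was 10.84 to 12.73 at 28 dpn and 10.62 to 13.66 at 188 dpn. Of the 13 erythroid genes 7 had their lowest mean at 1 dpn, against 1182 of all 5491 genes tested. The summed erythroid level was 12.17 to 13.23 in the newborns and 14.12 to 16.03 in the fetuses. It was 12.36 to 13.64 in the 28 dpn pigs and 12.63 to 13.65 in the 188 dpn pigs.

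The largest newborn-high steps were spread over genes of several functions, with the reductases or dehydrogenases DHRS4, HSD17B14 and CBR2 among them. ENPEP, a membrane aminopeptidase that cleaves angiotensin II, ranged from 8.34 over a median of 9.85 to 11.38 in the newborns. It ranged from 5.24 to 7.67 in the fetuses, 5.57 to 8.27 at 28 dpn and 4.39 to 6.82 at 188 dpn. The groups did not overlap, although the lowest newborn came close to the highest 28 dpn pig. The step to 28 dpn was 2.84 ± 0.27, or 7.17-fold (limma, adjusted p = 3.7e-13). ENPEP passed the filter on low values through the newborns alone, so its direction was largely set by the filter and the p-value is not independent of it.

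HPD, the dioxygenase that acts on 4-hydroxyphenylpyruvate in tyrosine breakdown, combined a very high newborn level with a fetal level near background. The newborns lay between 12.58 and 14.76 with a median of 13.86, whereas the fetuses lay between 4.17 and 8.01, the 28 dpn pigs between 9.55 and 10.95 and the 188 dpn pigs between 10.78 and 11.87. No other animal reached the lowest newborn. The difference was 7.70 to the fetus, a lower limit because the fetal mean of 6.14 was close to the background of 5.86, and 2.70 ± 0.23 to the 188 dpn pigs, or 6.48-fold (limma, adjusted p = 1.1e-14). The neighbouring steps of tyrosine breakdown did not share this profile. TAT, which makes the substrate of HPD, had means of 13.78, 13.45, 13.05 and 13.91 from 94 dpc to 188 dpn, and the means of FAH and GSTZ1, which act after HPD, were higher at each later stage, from 11.75 to 13.49 and from 12.03 to 13.73. HPD was the only newborn-high gene among 28 tested genes of amino acid catabolism.

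DHRS4, a carbonyl and retinal reductase, lay between 11.99 and 13.69 in the newborns and between 9.20 and 11.70 in the other animals, with a step of 2.17 ± 0.14 over 28 dpn (limma, adjusted p = 8.5e-19). HSD17B14, a hydroxysteroid dehydrogenase, was the tightest of the top genes, with newborns between 10.03 and 10.78 and the others between 6.67 and 9.32. Its step over 188 dpn was 1.80 ± 0.12 (limma, adjusted p = 4.8e-19). Both sets of newborns stood clear of all other stages. NUCB2, the precursor of the peptide nesfatin-1 and a calcium-binding protein, ranged from 10.10 to 12.52 against 7.63 to 10.09 elsewhere, so that the ranges touched without crossing, and its step over 28 dpn was 2.08 ± 0.18 (limma, adjusted p = 3.7e-14). CKB, the brain form of creatine kinase, ranged from 10.34 to 12.05 against 6.96 to 9.88, with a step of 2.03 ± 0.15 over the fetus (limma, adjusted p = 2.1e-16).

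**Figure D2:**
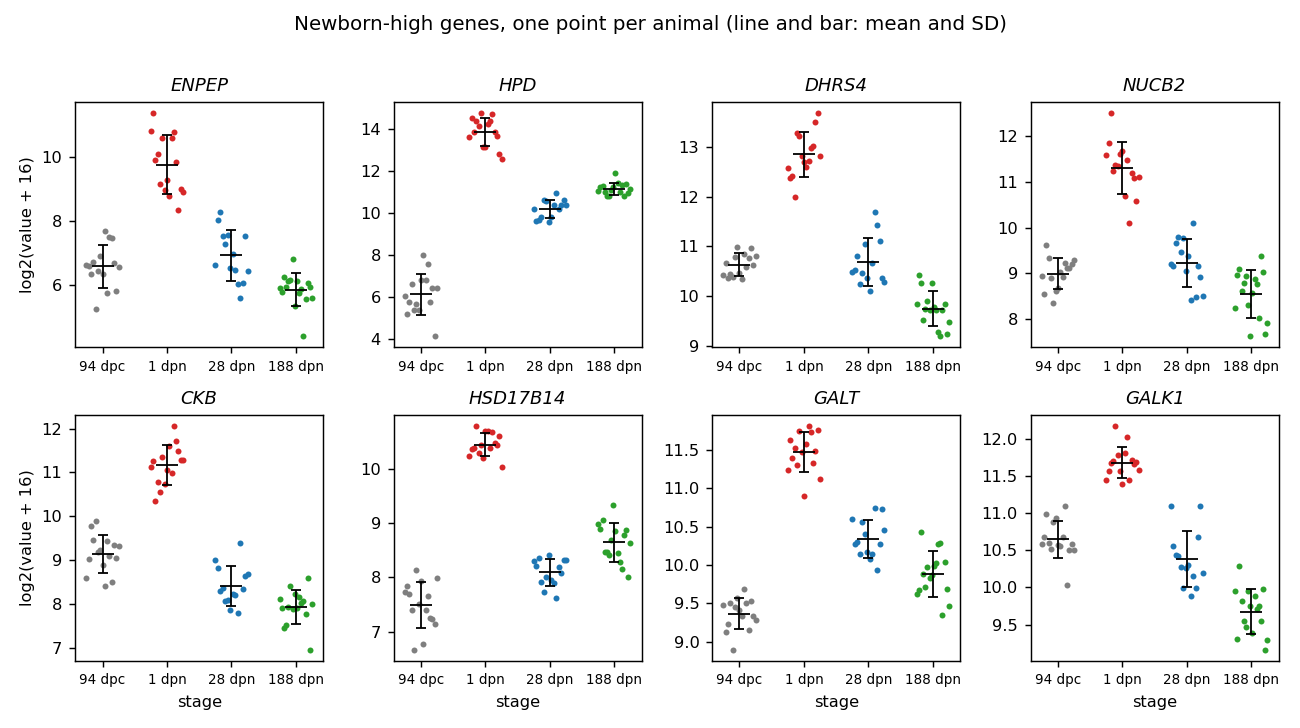
Log2(value + 16) of 8 newborn-high genes by stage, with each point 1 animal and the line and bar the mean and SD of the stage. In all 8 the red newborn points lie above every other animal, narrowly for ENPEP and NUCB2 and widely for HPD and HSD17B14.

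CBR2, a carbonyl reductase singled out after its values were seen, had the largest step of all genes without meeting the no-overlap condition. Its newborns ran from 5.56 over a median of 9.12 to 10.31, and 13 of the 15 exceeded the highest other animal at 7.47. The step over 28 dpn was 3.15 ± 0.36 (limma, adjusted p = 3.6e-10), a lower limit since the 28 dpn mean of 5.74 was at background. CBR2, ENPEP and PPARA passed the filter on low values through the newborns alone. In all 53 of the 5491 genes tested did so, and 17 of these were among the 426 newborn-high genes. The filter favoured that direction in such genes, so their calls are not independent of it.

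The enzymes that open the use of milk sugar rose together in the newborns. GALK1, the kinase that traps galactose in the cell, ranged from 11.39 to 12.16 with a median of 11.68, against 9.17 to 11.10 in the other animals. GALT, the transferase that acts next and gives its name to classical galactosemia, ranged from 10.90 to 11.81 with a median of 11.49, against 8.90 to 10.75. Neither gene overlapped with another stage. The step was 1.03 ± 0.11 for GALK1 over the fetus (limma, adjusted p = 1.3e-11) and 1.13 ± 0.10 for GALT over 28 dpn (limma, adjusted p = 2.7e-14). All 3 probe sets of GALT were newborn-high, each without overlap, and both genes kept their calls under all 11 alternatives. According to the methods of the study, the 28 dpn pigs had been suckled up to weaning at that age. Their means were 10.38 for GALK1 and 10.34 for GALT, against 11.68 and 11.47 in the newborns. The part that milk feeding had in these levels was not tested.

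The rest of the galactose route behaved otherwise. GALM, which interconverts the ring forms of galactose ahead of the kinase, had means that were higher at each later stage, from 9.79 to 11.88, with 10.79 in the newborns. UGP2, which supplies UDP-glucose, varied little, with stage means of 13.31 to 13.60, and PGM1 was 13.36 in the newborns between 12.85 in the fetus and 13.67 at 188 dpn. A wider list of 24 tested genes for galactose and nucleotide sugars was drawn up after the newborn-high genes had been seen, so its counts carry no independent weight. In it 10 genes were newborn-high and 0 newborn-low, and the median contrast was 0.53 against 0.03 over all genes. Its called members, chosen for naming after their values were seen, included GFPT1, the entry step of the hexosamine pathway, with a step of 0.77. PGM3 of the same pathway had 0.57, and GMPPA and GMPPB, which make GDP-mannose, had 0.64 and 0.75. The list also held SLC35B1 and SLC33A1, with 0.82 and 0.76, which carry ATP and acetyl-CoA rather than sugars into the endoplasmic reticulum and Golgi.

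Genes for protein folding in the endoplasmic reticulum had the highest share of newborn-high calls among the lists used here. Of 33 tested members 17 were newborn-high (51.5%, against 7.76% of all genes), 1 was newborn-low, and the median contrast of the list was 0.67. The count was 14 with the actin covariate, 13 with the GAPDH covariate and 10 after median centring.

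The helpers of the chaperone BiP stood out most. DNAJB11, a BiP co-chaperone, ranged from 10.95 over 11.86 to 12.27 in the newborns against 8.16 to 10.64 elsewhere, without overlap, and stood 1.66 ± 0.12 above 28 dpn (limma, adjusted p = 1.1e-17). DNAJC3, another BiP co-chaperone and a brake on the stress kinase PERK, ranged from 10.03 to 11.28 against 7.70 to 9.88 and stood 1.10 ± 0.10 above the fetus (limma, adjusted p = 2.7e-13). PDIA3, a disulfide isomerase for glycoproteins, was the third member whose newborns cleared every other animal, at 14.09 to 14.66 against 11.55 to 13.70, and its step over 28 dpn was 0.98 ± 0.09.

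Other members rose with partial overlap. HYOU1, the nucleotide exchange factor of BiP, placed 14 of 15 newborns above every other animal and stood 1.20 ± 0.13 above 28 dpn, and CRELD2, a secreted stress protein, placed 12 above and stood 1.21 ± 0.15 above. SDF2L1 had a step of the same size, 1.20 ± 0.18, but its 28 dpn pigs ran from 10.39 to 12.84 and only 5 newborns exceeded them all. BiP itself, HSPA5, was already abundant at every stage, with newborns at 14.24 to 15.38 and other animals at 12.07 to 14.56. Its step of 0.45 ± 0.14 over 28 dpn passed (limma, adjusted p = 0.013) but lost the call with the actin covariate and after median centring.

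Not all folding genes took part. CALR, the lectin chaperone calreticulin, was newborn-low with a mean of 10.12 against 10.44 in the fetuses and 11.82 and 11.06 in the older pigs (step -0.32 ± 0.11, limma, adjusted p = 0.039), a call lost under 5 of the alternatives. XBP1, the transcription factor of the response, and the translocon genes SEC61B, SEC61G, SSR2, SSR3 and SSR4 were not called, while SEC61A1, the channel of the translocon and named after its values were seen, was newborn-high with a step of 0.32 ± 0.12 (limma, adjusted p = 0.048). PDIA4 was uncalled on the probe set that represented it, with newborns at 13.53 and 28 dpn pigs at 13.39 on average. Its other probe sets were newborn-high. One of them read 13.34 in the newborns against 11.04 in the fetuses and 10.18 and 9.21 in the older pigs, without overlap. The other had a step of 1.30 over 28 dpn, with overlap (limma, adjusted p = 1.9e-05). DDIT3, the stress factor CHOP, averaged 8.38 in the newborns and did not pass (step -0.45 ± 0.18, limma, adjusted p = 0.11).

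**Figure D3:**
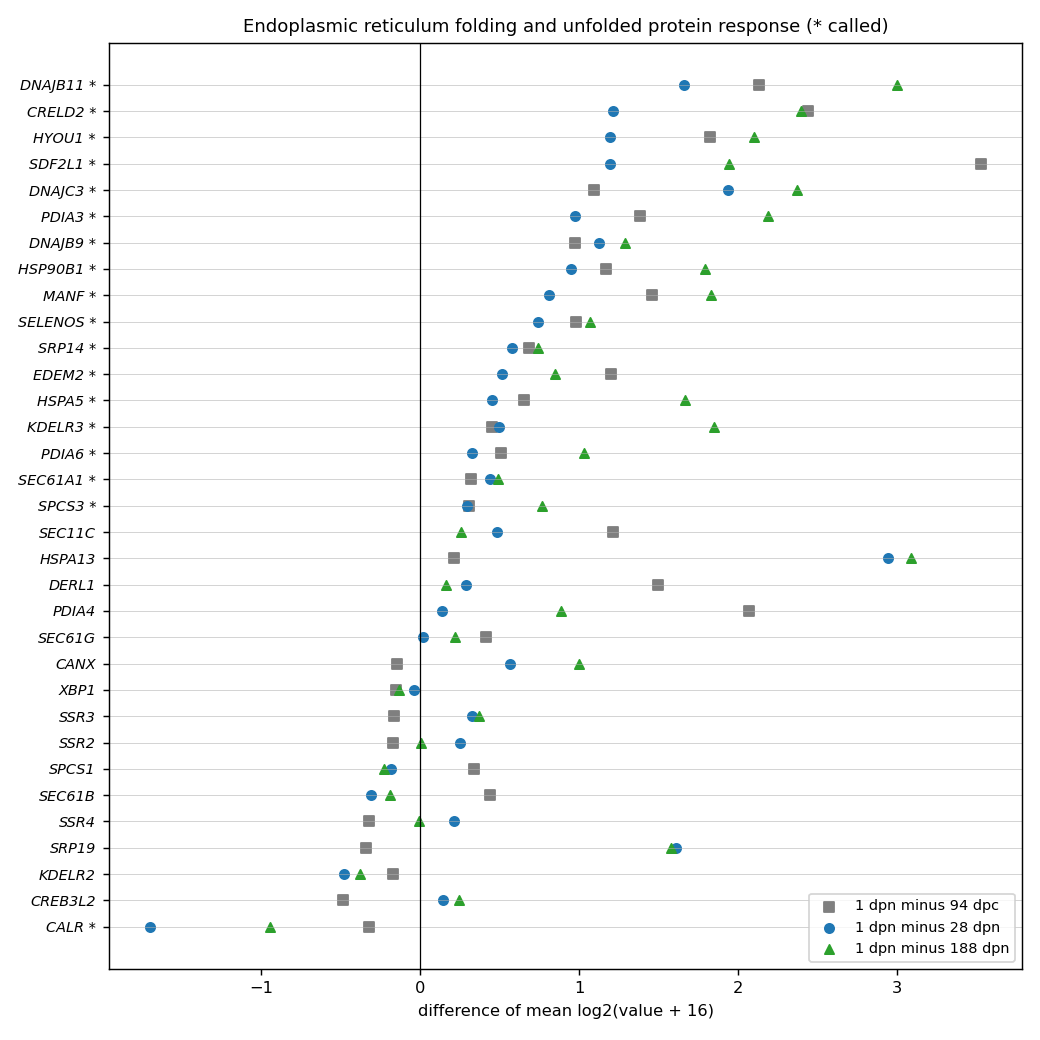
Differences between the newborn mean and each of the other stage means for the 33 tested genes of endoplasmic reticulum folding, in log2(value + 16), sorted by the difference to the highest other stage and with called genes starred. In 17 starred genes all 3 markers lie to the right of 0, and in CALR all 3 lie to the left.

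The route from the endoplasmic reticulum to the Golgi was described with lists drawn up after the newborn-high genes had been seen, so their counts carry no independent weight, and PREB, SAR1A, COPG1, COPG2 and UFM1 were chosen for naming in the same way. Of 55 tested genes of secretory vesicle transport 17 were newborn-high (30.9%) and 3 newborn-low, and of 34 genes for signal peptide handling and membrane insertion 14 were newborn-high (41.2%) and none newborn-low. With the actin covariate these counts were 10 and 11.

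The cycle that builds COPII coats was covered in several steps. PREB, which charges the starting GTPase SAR1, ranged from 9.10 to 10.65 in the newborns against 8.10 to 9.14, with 13 newborns above every other animal. SAR1A itself ranged from 11.04 to 11.90 against 9.61 to 10.91, and SEC23B, an inner coat subunit, from 10.51 to 12.15 against 9.13 to 10.49. Neither of the latter overlapped. Their steps to the nearest stage were 1.02 ± 0.11, 0.96 ± 0.08 and 1.04 ± 0.12.

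TMED5, a cargo adaptor of the p24 family, stood 1.46 ± 0.14 above 28 dpn, with newborns at 10.71 to 12.33 and all others at 9.14 to 10.31. HM13, the signal peptide peptidase that clears spent signal peptides, ranged from 10.85 to 12.69 against 8.16 to 10.58 and stood 1.63 ± 0.12 above the fetus (limma, adjusted p = 1.8e-16). AP1M1, a subunit of the clathrin adaptor at the Golgi, ranged from 9.59 to 10.14 against 7.63 to 9.21. All of these genes separated the newborns from every other animal. In the opposite direction COPZ2, a variant subunit of the COPI coat, ranged from 9.69 to 10.51 in the newborns against 10.71 to 11.86 elsewhere (step -0.97 ± 0.09, limma, adjusted p = 4.6e-13), while COPG1 of the same coat was newborn-high by 0.29 and COPG2 was newborn-low with a step of -0.80.

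Genes for the removal of misfolded proteins were newborn-high in part. RNF121, a ubiquitin ligase of the endoplasmic reticulum, ranged from 10.51 to 11.30 against 9.17 to 10.30 without overlap, and UFM1, the ubiquitin-like modifier of ribosomes at this membrane, stood 0.94 ± 0.12 above 28 dpn. Of 36 tested proteasome genes 6 were newborn-high (16.7%) and 0 newborn-low, and the first count was 11 after quantile normalization and 4 after median centring or with the GAPDH covariate. The newborns cleared all other animals for PSMA3, a core subunit, with a step of 0.73 ± 0.10. For PSME3, a regulatory cap with a step of 0.80 ± 0.09, the lowest newborn and the highest fetus both stood at 9.57 and differed only beyond that precision. ALB and HP, the genes of albumin and haptoglobin, had newborn medians of 16.26 and 16.25 and steps of 0.35 ± 0.09 and 0.44 ± 0.09, and both calls ended after median centring. Among 26 acute phase genes 4 were newborn-high and 0 newborn-low. The first count was 6 after quantile normalization or with the actin covariate, 1 with the GAPDH covariate and 0 after median centring.

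Genes of mitochondrial energy supply were the next large group. Of 57 tested genes of oxidative phosphorylation 13 were newborn-high (22.8%) and 0 newborn-low, with a median difference of 0.77 to the fetus but only 0.11 to 28 dpn and 0.01 to 188 dpn. The count was 23 after quantile normalization, 4 after median centring, 10 with the actin covariate and 3 with the GAPDH covariate.

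NDUFB3 and NDUFS1, subunits of complex I, cleared every other animal. NDUFB3 ranged from 11.41 to 12.64 against 9.59 to 11.32 and stood 1.18 ± 0.11 above 28 dpn (limma, adjusted p = 8.2e-13), and NDUFS1 ranged from 10.94 to 12.02 against 9.33 to 10.88 and stood 0.77 ± 0.09 above the fetus. UQCRB, a subunit of complex III, placed 14 newborns above all others, with a step of 1.05 ± 0.09. CYCS, cytochrome c, placed 12 above, with a step of 1.03 ± 0.16 that was lost with the GAPDH covariate.

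Further mitochondrial genes had newborns above all other animals, of which AIFM1, CHCHD3, SSBP1 and SLC25A5 were chosen for naming after that was seen. PTPMT1, a phosphatase of cardiolipin synthesis, ranged from 10.46 to 11.70 against 8.56 to 10.18 (step 1.18 ± 0.10). AIFM1 and CHCHD3, which serve import into the intermembrane space and the shape of the cristae, had steps of 0.84 ± 0.08 and 0.85 ± 0.08. SSBP1, which coats mitochondrial DNA, and SLC25A5, an ADP/ATP carrier, had steps of 0.84 ± 0.10 and 0.62 ± 0.08. In a list of 26 tested genes for mitochondrial import and cristae 7 were newborn-high and 2 newborn-low, and with the GAPDH covariate 2 were newborn-high. This list was also drawn up later, so its counts carry no independent weight.

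Fatty acid oxidation was raised in part. Of 34 tested genes 9 were newborn-high (26.5%) and 1 newborn-low, the median difference being 0.92 to the fetus, -0.002 to 28 dpn and -0.021 to 188 dpn. With the actin covariate 1 of the 34 genes was newborn-high, with the GAPDH covariate 4 and after median centring 5. PLIN2, the coat protein of lipid droplets, ranged from 11.25 over 13.02 to 14.16 in the newborns against 10.97 to 12.43 in the fetuses and 7.91 to 11.99 in the older pigs, so that fetal and newborn animals overlapped (step 1.18 ± 0.28, limma, adjusted p = 0.0013), and the call was lost with the GAPDH covariate. HADHA and HADHB, the subunits of the trifunctional protein of beta-oxidation, had steps of 0.72 ± 0.09 and 0.62 ± 0.09 with 12 and 13 newborns above every other animal, and both calls were lost with the actin covariate.

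PPARA, the nuclear receptor that drives fatty acid catabolism, was near background outside the newborns, with fetuses at 4.22 to 6.27, 28 dpn pigs at 4.42 to 6.57 and 188 dpn pigs at 4.32 to 6.93, and ranged from 6.25 over 7.42 to 8.73 in the newborns. Its step of 1.61 ± 0.25 is a lower limit (limma, adjusted p = 7.1e-07), and the call was lost with the actin covariate. PPARA also passed the filter through the newborns alone, so the p-value is not independent of that choice. PLIN2, HADHA and HADHB are known targets of this receptor, and so are CPT1A, ANGPTL4 and PDK4, which were not newborn-high. CPT1A, the gate of mitochondrial fatty acid entry, averaged 12.14 in the newborns and 12.56 at 28 dpn, and ANGPTL4 and PDK4 averaged 9.11 and 10.04 against 11.35 and 11.47 at 188 dpn. PCK1, the classic gluconeogenic enzyme, averaged 13.64 in the newborns, above 12.05 in the fetus but below 14.11 and 14.94 in the older pigs. In the gluconeogenesis list 3 of 22 genes were newborn-high, namely MDH1, LDHB and the glycerol kinase GK, and none newborn-low. After median centring 1 of these calls was left, those of LDHB and GK being lost, and MDH1 lost its call with the GAPDH covariate. Another probe set of GK was newborn-high without overlap, with a step of 2.34 ± 0.23 over 28 dpn (limma, adjusted p = 2.2e-12).

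**Figure D4:**
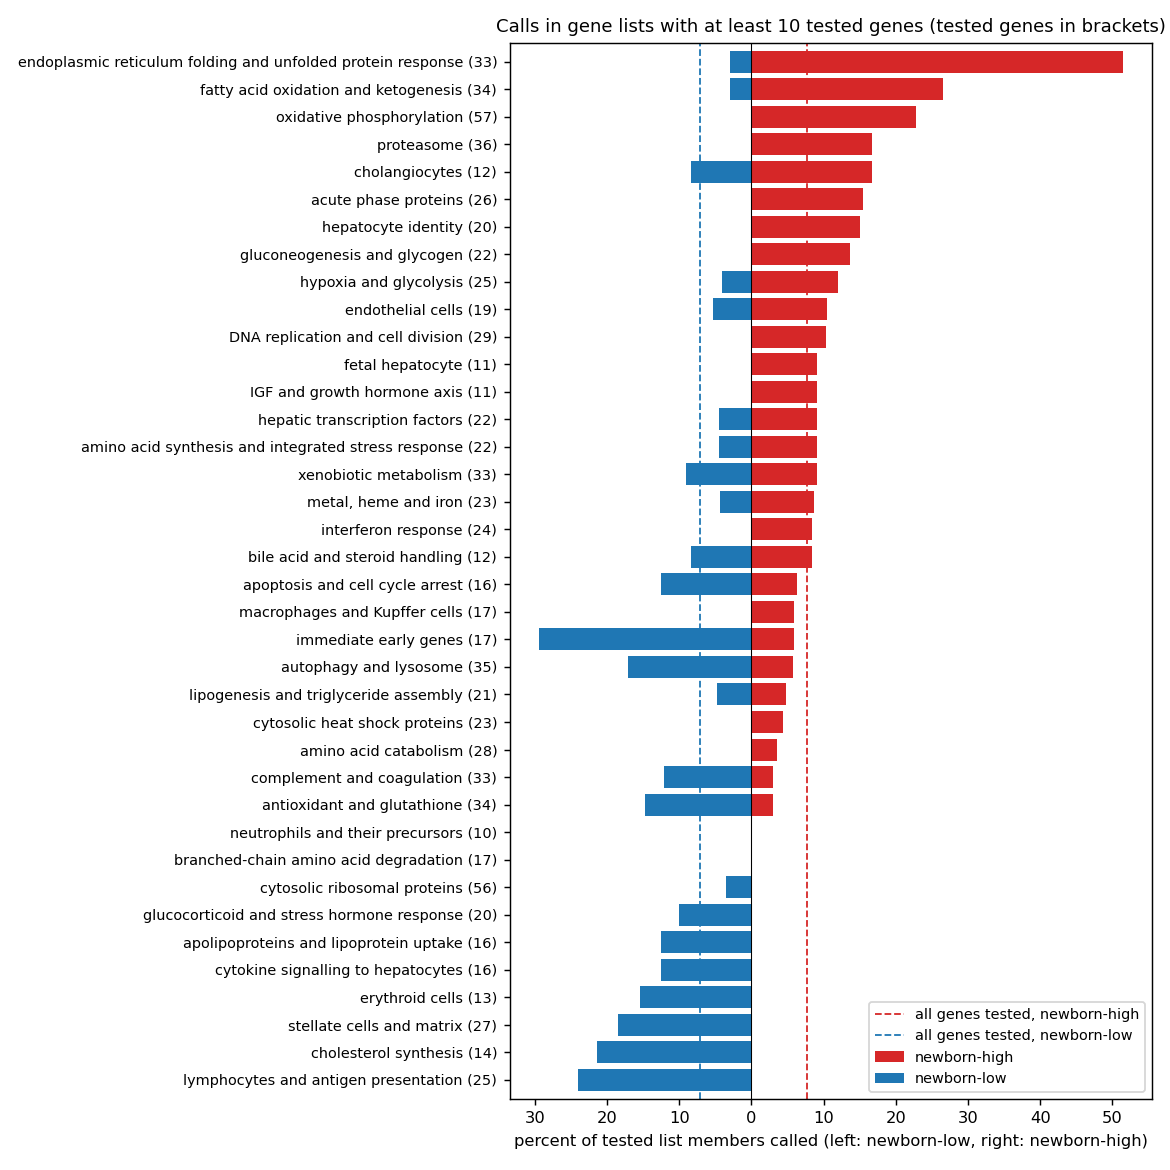
Percentage of tested members called newborn-high (red, to the right) and newborn-low (blue, to the left) for every gene list with at least 10 tested genes, with dashed lines at the shares over all genes, 7.76% and 7.05%. Endoplasmic reticulum folding reaches 51.5% on the right, while immediate early genes (29.4%), lymphocytes (24%) and cholesterol synthesis (21.4%) reach farthest to the left.

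Single regulators and transporters were newborn-high as well. TP53INP2, which acts in autophagy and transcription, was near background in the fetus at 4.73 to 6.31 and ranged from 9.58 over 10.69 to 11.39 in the newborns, 14 of which exceeded every other animal (step 1.72 ± 0.24 over 28 dpn, limma, adjusted p = 9.5e-08). RORA, a nuclear receptor of the circadian clock and of lipid metabolism, placed 13 newborns above all others, with a step of 1.22 ± 0.14 over the fetus. NR1I2, the xenobiotic receptor PXR, had newborns at 8.60 to 9.71 and a step of 1.04 ± 0.11, and its call was lost with either covariate. ABCB1 and ABCC2, exporters of drugs and of bilirubin conjugates respectively, had steps of 1.08 ± 0.17 and 0.81 ± 0.12, and the call of ABCB1 was lost with the actin covariate. DIO1, the deiodinase that activates thyroid hormone and was named after its values were seen, ranged from 11.31 to 12.35 in the newborns and had a step of 1.15 ± 0.19 over 28 dpn. In the whole xenobiotic list, however, 3 of 33 genes were newborn-high and 3 newborn-low. In the autophagy and lysosome list 2 of 35 genes were newborn-high (5.71%) and 6 newborn-low (17.1%).

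On the low side, DGAT2, which completes triglyceride synthesis, had the largest step among genes without overlap. Its newborns ranged from 9.19 over 10.13 to 10.71, against 10.93 to 12.13 in the fetuses, 11.69 to 12.53 at 28 dpn and 12.21 to 13.02 at 188 dpn. Every newborn lay below every other animal, and the step to the fetus was -1.43 ± 0.12 (limma, adjusted p = 1.5e-14). The related enzyme DGAT1 was not called, with means of 9.46 in the fetuses, 10.09 in the newborns and 10.29 and 10.95 in the older pigs. FASN, the fatty acid synthase, had its lowest mean, 10.52, at 1 dpn but did not pass (step -0.48 ± 0.29, limma, adjusted p = 0.45), and among 21 tested genes of lipogenesis 1 was newborn-low, DGAT2, and 1 newborn-high, the lipoprotein assembly gene MTTP, whose call was lost after median centring and with either covariate.

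Some genes of cholesterol synthesis were newborn-low. Of 14 tested genes 10 had their lowest mean at 1 dpn, against 1182 of all 5491 genes tested. Among the 14, 3 passed as newborn-low (21.4%, against 7.05% of all genes), and the median contrast was -0.90. The count of newborn-low genes was 1 with the actin covariate and 5 after median centring. MSMO1, the sterol methyl oxidase, ran from 8.71 over 11.64 to 13.61 in the newborns, a range that overlapped with all stages, against 13.16 to 14.06 in the fetuses and 11.49 to 14.33 and 12.37 to 14.40 in the older groups. Its step to 28 dpn was -1.50 ± 0.29 (limma, adjusted p = 6.6e-05). TM7SF2 and FDFT1, a sterol reductase and squalene synthase, had steps of -0.79 ± 0.17 and -0.65 ± 0.18, and both calls were lost with the actin covariate.

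The remaining newborn-low genes with large steps or no overlap had varied functions. APOF, an apolipoprotein, placed 14 of 15 newborns below every other animal, with 12.27 to 13.87 against 13.82 to 15.57 and a step of -1.27 ± 0.11 (limma, adjusted p = 8.5e-14). HSD17B2, which inactivates sex steroids, ranged from 12.20 to 13.65 against 12.75 to 15.08 with a step of -1.25 ± 0.15. SERPINF1, the secreted antiangiogenic factor PEDF, ranged from 13.39 to 14.21 and lay wholly below the 14.35 to 15.49 of the other animals (step -0.83 ± 0.08). FXYD7, a regulator of the sodium pump, and FAM213A, a peroxiredoxin-like protein, were also free of overlap, with steps of -1.20 ± 0.13 and -1.01 ± 0.13. So were TYK2, a cytokine receptor kinase, at -0.68 ± 0.07 and H3F3A, the gene of histone H3.3, at -0.66 ± 0.06.

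**Figure D5:**
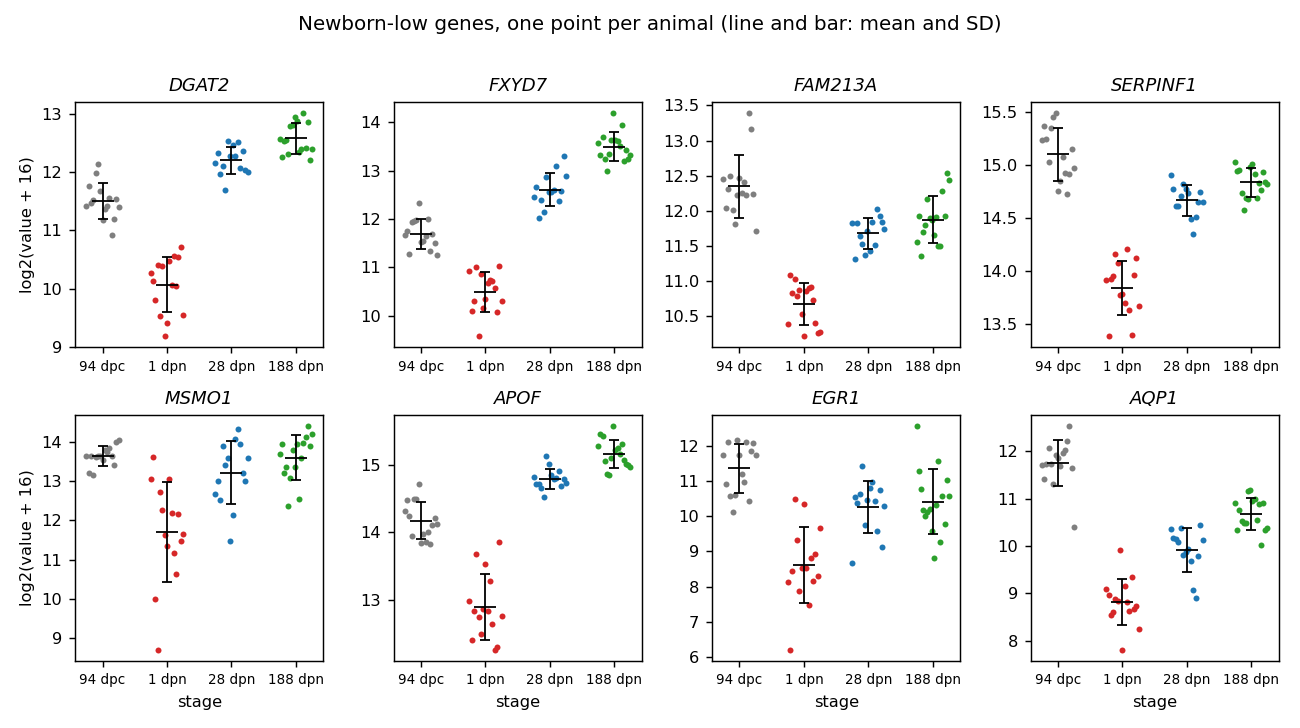
Log2(value + 16) of 8 newborn-low genes by stage, with each point 1 animal and the line and bar the mean and SD of the stage. In DGAT2, FXYD7, FAM213A and SERPINF1 all newborn points lie below every other animal, while the newborns of MSMO1, APOF, EGR1 and AQP1 overlap with other stages.

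Immediate early genes, which respond fast to stimuli, included several newborn-low members. Of 17 tested genes 11 had their lowest mean at 1 dpn, against 1182 of all 5491 genes tested. Among the 17, 5 were newborn-low (29.4%) and 1, BTG2, was newborn-high, a call lost after median centring and with either covariate. EGR1 ranged from 6.21 over 8.54 to 10.50 in the newborns against 8.66 to 12.55 in the others, with 9 newborns below every other animal and a step of -1.65 ± 0.32 (limma, adjusted p = 5.1e-05). BTG1 was steadier, at 11.00 to 12.06 against 11.90 to 13.04, with a step of -1.04 ± 0.11. FOS had its lowest mean at 1 dpn, 9.51, and did not pass (step -0.53 ± 0.39, limma, adjusted p = 0.69). With the actin covariate 1 of the 17 genes was newborn-low and with the GAPDH covariate 2, EGR1 losing its call with the former, and the manner of killing, which differed between the stages, cannot be told apart from age here.

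Markers of cells other than hepatocytes were also newborn-low in part, but not in every list. Of 19 endothelial genes 2 were newborn-high (10.5%) and 1 newborn-low, and of 12 cholangiocyte genes 2 (16.7%) and 1. Of 17 macrophage genes 1 was newborn-high and 0 newborn-low. ENG, an endothelial gene, had every newborn above every other animal, a call lost with the GAPDH covariate. KRT18 and SLC4A2 of the cholangiocyte list were newborn-high, and both calls were lost with either covariate. Of 25 tested genes of lymphocytes and antigen presentation 6 were newborn-low (24%) and 0 newborn-high, with a median contrast of -1.07, and the count was 3 with the actin and 2 with the GAPDH covariate. JCHAIN, which joins secreted antibodies, fell to 4.68 to 7.42 in the newborns against 6.80 to 7.77 in the fetuses and 9.17 to 11.58 at 188 dpn, and SLA-DRA, a class II antigen-presenting molecule, averaged 9.92 against 10.75 in the fetuses and 12.32 and 12.43 in the older pigs, and both calls were lost with the GAPDH covariate. In the newborns 12 of the 33 list genes on the array were at or below background, against 6 in the fetuses and 3 in both older stages, but the background level itself was higher in the newborns, at 6.29 against 5.73 to 5.86. The summed level of the list overlapped between newborns, at 15.61 to 16.64, and fetuses, at 16.03 to 16.87.

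Matrix and red cell genes followed with smaller counts. Of 27 stellate and matrix genes 5 were newborn-low (18.5%), among them PDGFRB, a receptor of stellate cells, with a step of -0.77 ± 0.11 and BGN, the proteoglycan biglycan, with -0.72 ± 0.15. None of the 5 calls was left with the actin covariate, and 1 with the GAPDH covariate. SLC25A37, which brings iron into the mitochondria of red cell precursors, lay below every other animal at 7.91 to 9.04 against 9.08 to 11.43 (step -0.91 ± 0.11 to 188 dpn), a call lost with the actin covariate. HBM, a globin gene, averaged 9.01 against 12.42 in the fetuses and 10.12 and 10.10 in the older pigs, a call lost with either covariate. AQP1, a water channel of bile ducts, vessels and red cells, averaged 8.82 against 11.75, 9.92 and 10.68 (step -1.10 ± 0.16), lost with the actin covariate. The share that cell number had in these differences was not tested.

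Newborns varied more among themselves than the animals of other stages. Over the 49 newborn-high genes of at least 2-fold the median SD was 0.48 in the newborns, 0.34 in the fetuses and 0.43 and 0.38 in the older groups, and over all genes tested it was 0.35 against 0.25, 0.28 and 0.31. The newborn closest to the other animals was not always the same. Newborn 11 had the lowest value in 11 of the 34 genes without overlap, newborn 3 in 4, and no other newborn in more than 3. Without newborn 3, whose array correlated least with its stage, 909 probe sets were newborn-high and 881 newborn-low.

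Several genes were read by more than 1 probe set, which gives a second look at the same RNA. Of 110 newborn-high genes with several tested probe sets, the others were all newborn-high in 54 and at least 1 was called the opposite way in 2. Of 104 newborn-low genes these numbers were 16 and 6. Of the 945 newborn-high probe sets 263 and of the 954 newborn-low ones 501 had no gene symbol, so that the low side is less completely described. Genomic sequences and positions were not analysed here.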

How the data were processed

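Total RNA of 60 pig livers was hybridized to Affymetrix GeneChip Porcine Genome arrays. The authors deposited 1 linear intensity per probe set and array, scaled to a common trimmed mean. GCOS 1.1.1 is the tool given in the submitters' processing notes. These are not the values on which the study ran its tests. Each intensity was raised by 16 and taken to log2. Affymetrix controls (124 of 24123 probe sets) were left out. A probe set entered the tests if, in any stage, 50% or more of its animals had a value over their array's median. Stage means were fitted over all 60 arrays with limma 3.58.1 in R 4.3.3, and the largest of the 3 two-sided p-values was adjusted by Benjamini-Hochberg over 13844 probe sets. The probe set with the highest mean stood for a gene, with symbols from the platform annotation. Fits were tested on simulated data. Control ratios were compared by permutation (100000 resamples, scipy). The number of arrays limits the precision.

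Alternatives were quantile normalization, median centring, no filter, pseudocounts of 1 and 64, covariates, array weights, another adjustment, and leaving out the fetuses or 1 newborn. Promoter motifs were not analysed here.

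Named genes are up to 20 per direction with no overlap and the largest step, up to 4 called members per list in its main direction and 2 in the other, and a fixed hepatic set. Some genes of that set are not reported here. Members, the 42 lists and the rule were chosen with earlier results of these data known, and 5 further lists after the newborn calls were seen. P-values measure the spread between animals, most of which came as sib pairs according to the methods of the study. Treating sibs as independent can make these p-values too small.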

Additional observations from a re-analysis of the deposited data

How the results depend on the processing

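No paired analysis was possible because the replicate numbers only count the animals within a stage, each animal was sampled once, and the litters that born animals of different stages may share are not in the labels. With the actin ratio as a covariate 434 probe sets were newborn-high and 433 newborn-low, 220 and 179 at gene level, and the contrast passed upward for 2642 and downward for 2366. With the GAPDH ratio, added after seeing the data, the counts were 396 and 363, 178 and 176 at gene level, and the contrast passed downward for 2526. The 2-fold newborn-low probe sets numbered 79, and 121 or 43 with a pseudocount of 1 or 64. Without the 94 dpc stage, which asks for less, 4689 probe sets were newborn-high and 2971 newborn-low, of which 1448 and 629 at least 2-fold, or 1699 and 1390 genes. Single genes turned direction in 8 cases, of which the cause was not tested. In called genes the value is the step to the nearest stage. It turned for FGG after median centring (-0.18), and for JAK3 (0.08), PFKL (-0.011) and TGFB3 (0.11) with the actin ratio. In CPT1A, CRP and MT1A the newborn mean lay between those of other stages, so the value is the contrast with their mean. That contrast was -0.058 for CPT1A and -2.06 for CRP without the 94 dpc stage, a setting that changes the mean itself. For MT1A it was 0.084 with the actin ratio and 0.50 with the GAPDH ratio. Genes low in signal have differences that understate their change.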
